A study of Mus musculus with 12 samples.

Results

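The Wnt ligands, the Frizzled receptors, and their secreted antagonists and agonists were described in colon and urinary bladder of mice with and without inducible smooth muscle deletion of *Yap1* and *Wwtr1*. Members were all genes of the tables named as a Wnt, Fzd, Sfrp, Dkk, or Rspo gene, which gave 41 of 54532 genes: 19 Wnt, 10 Fzd, 4 Sfrp, 4 Dkk, and 4 Rspo genes. The rule used gene names only and was set with earlier results of these data known. All mice were males of 5 to 7 weeks with floxed *Wwtr1* and *Yap1*, and all were given tamoxifen, 1 mg a day per mouse, by 5 injections. Y/T KO mice carried in addition the Myh11CreERT2 transgene, a Cre recombinase that tamoxifen activates under the smooth muscle myosin heavy chain promoter, and Ctrl mice were Cre-negative. The transgene lies on the Y chromosome, so males only could be used. Tissues were taken on day 7 after the first injection. RNA of whole tissue was sequenced in 12 libraries, 3 per genotype in each tissue, with a single mouse behind each library. The Ctrl colons were those of mice 788, 786, and 787, and the Y/T KO colons those of mice 759, 783, and 780. The Ctrl bladders were those of mice 784, 785, and 788, and the Y/T KO bladders those of mice 782, 783, and 780. Values per library are given in this order of mice. Mice 788, 783, and 780 thus gave both tissues.

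Wnts are secreted, lipid-modified glycoproteins that bind Frizzled receptors on neighbouring cells. Together with the co-receptors *Lrp5* and *Lrp6* they stabilise beta-catenin, which then acts with TCF/LEF factors on DNA, and with Ror receptors they act on the cytoskeleton and cell polarity without beta-catenin. Sfrp proteins bind Wnts outside the cell, Dkk proteins block *Lrp5* and *Lrp6*, and R-spondins amplify the response by keeping the ubiquitin ligases *Rnf43* and *Znrf3* away from Frizzleds. In the gut, cells of the mesenchyme supply Wnts and R-spondins to the crypt epithelium, and in the bladder, exchange between urothelium and stroma uses the same pathway.

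Values are TPM, the transcript abundance of a gene after correction for its length, which StringTie scales to the same total in every library. Aligned sequence, as read from the ratio of coverage to FPKM, ran from 2.80 to 3.94 gigabases per library. The targeted genes were checked first. *Yap1* stood between 45.8 and 54.9 TPM in Ctrl colon and between 41.3 and 47.0 in Y/T KO colon, and between 98.6 and 110 in Ctrl bladder and between 69.4 and 72.1 in Y/T KO bladder. *Yap1* thus overlapped between genotypes in colon and was separate, with lower values in Y/T KO, in bladder. *Wwtr1* overlapped between genotypes in both tissues. The genotype of each library was taken from its label, which neither gene could check in colon. Tissue labels fitted the markers: 11 colon epithelial markers summed to between 11447 and 14787 TPM in colon and at most 265 TPM in bladder, with *Cdx2* and *Muc2* listed at 0 there, and 9 urothelial markers summed to between 5072 and 6710 TPM in bladder and at most 43.3 TPM in colon. The 8 pancreatic acinar markers summed to between 523 and 832 TPM in colon libraries and between 71.4 and 138 TPM in bladder libraries. In bladder, *Cela2a*, *Prss2*, *Pnlip*, *Amy2a5*, and *Ctrb1* were listed at 0, and *Cpa1* did not exceed 0.0837 TPM. Nearly all of the bladder sum thus came from *Cela1* and *Cpb1*. The 9 smooth muscle markers summed to between 7592 and 8321 TPM in Ctrl colon and between 4972 and 5849 TPM in Y/T KO colon, and to between 35341 and 45982 TPM in Ctrl bladder and between 16905 and 30985 TPM in Y/T KO bladder. The 8 fibroblast markers overlapped between genotypes, at 2236 to 2896 against 2536 to 3149 TPM in colon and 10203 to 12629 against 9409 to 12307 TPM in bladder. In whole tissue, fewer cells of a type and less RNA per cell cannot be told apart.

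Of the 41 genes, 28 reached 0.5 TPM in at least 3 libraries of a tissue and were tested there. Of these, 21 were tested in both tissues, 6 in bladder alone (*Wnt7b*, *Wnt10a*, *Wnt10b*, *Wnt11*, *Fzd3*, and *Fzd10*), and 1, *Wnt8b*, in colon alone. The other 13 were *Wnt1*, *Wnt3*, *Wnt3a*, *Wnt7a*, *Wnt8a*, *Wnt9b*, *Wnt16*, *Fzd6*, *Fzd9*, *Dkk1*, *Dkk4*, *Rspo2*, and *Rspo4*. Among those, *Wnt1*, *Wnt8a*, *Dkk4*, and *Rspo4* were listed at 0 in all 12 libraries. *Wnt3*, the ligand of Paneth cells in the small intestine, reached at most 0.0654 TPM in colon and was listed at 0 in all bladder libraries. *Wnt7a* and *Wnt9b* stayed at or below 0.0533 and 0.101 TPM, and *Fzd6* and *Fzd9* at or below 0.925 and 0.822 TPM. *Rspo2* did not exceed 0.173 TPM in colon or 0.489 TPM in bladder. *Wnt16* had TPM values of 0.700, 1.16, and 0.297 in Ctrl bladder and 0, 0.282, and 0.0898 in Y/T KO bladder. It stayed at or below 0.299 TPM in every colon library.

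**Figure D1:**
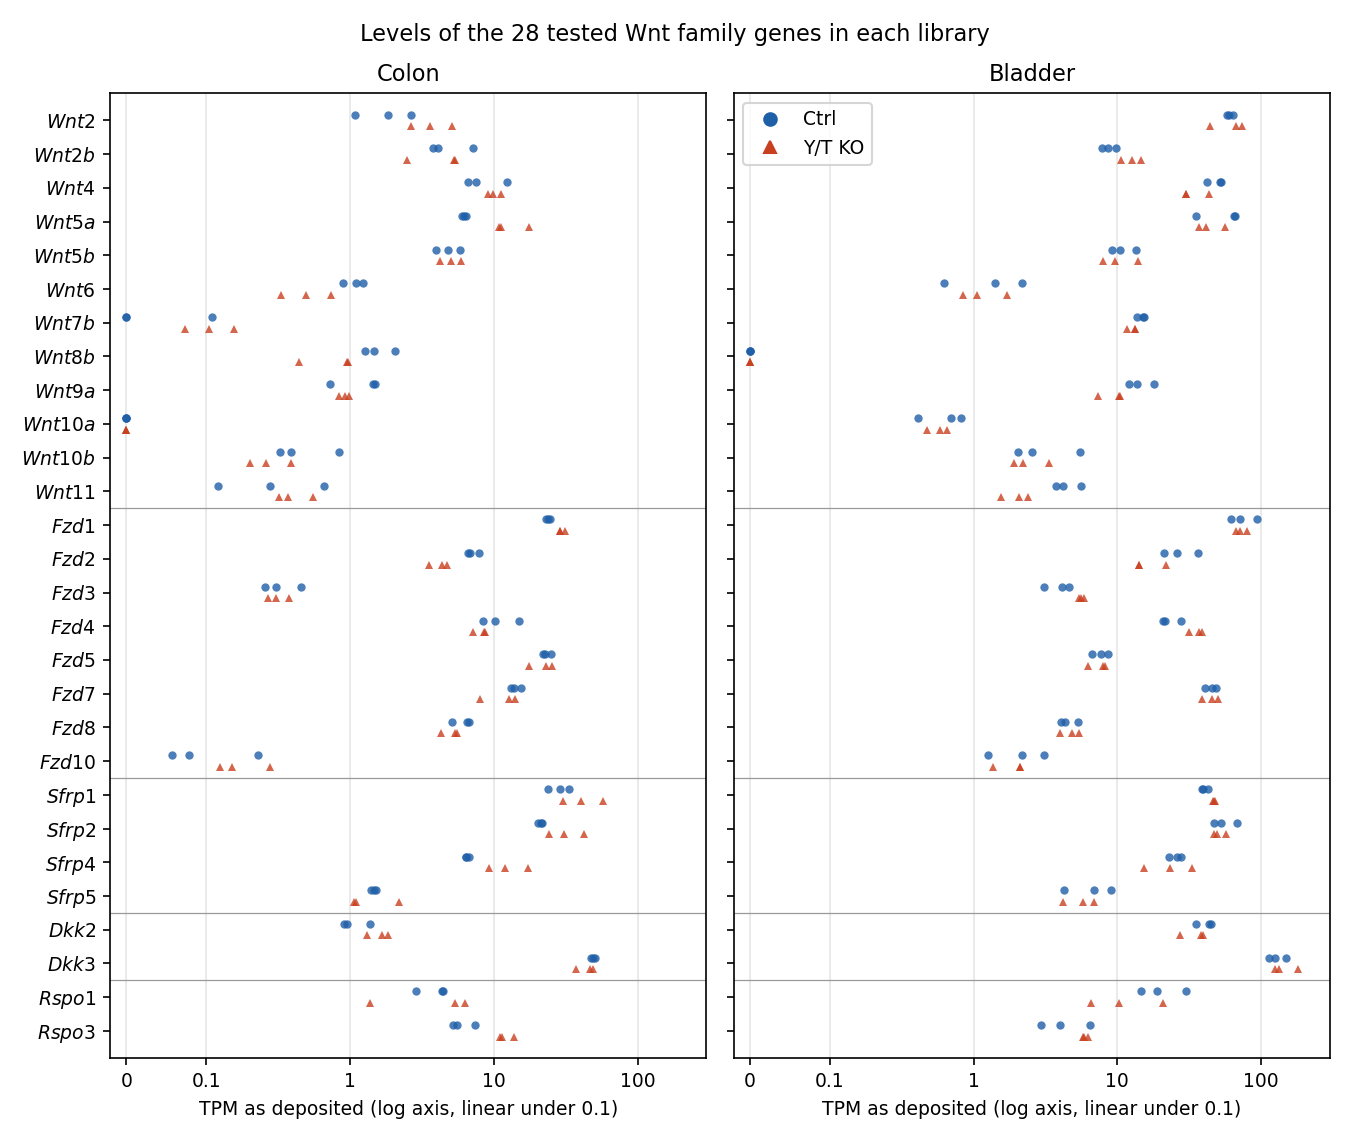
TPM as deposited (x axis, log scale that turns linear under 0.1) of the 28 tested genes (y axis) in colon (left) and bladder (right), with 1 circle per Ctrl library and 1 triangle per Y/T KO library. Most genes lie further right in bladder, *Wnt8b* lies at 0 there, and *Wnt10a* lies at 0 in colon.

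The tissues differed for most of the 21 genes tested in both, and bladder mostly had the higher levels. In Ctrl mice, 15 of the 21 were lower in colon than in bladder and 3 were higher (*Fzd5*, *Fzd8*, and *Rspo3*) at a limma adjusted p under 0.05, where 24.0% of the 16298 genes tested in both tissues were lower and 25.1% were higher. In Y/T KO mice, 13 were lower and 2 were higher (*Fzd5* and *Rspo3*), against 23.9% and 26.1% of those genes. The median log2 difference, colon minus bladder, was -1.39 over the 21 genes in Ctrl and -1.35 in Y/T KO, against 0.05 and 0.04 over all genes tested in both tissues. The 7 genes that reached the filter through 1 tissue had to differ between tissues, so they are given by their values only. Fibroblast and smooth muscle marker sums were also lower in colon, as given above, and their part in this difference was not tested. With TPM as deposited instead of rescaled, the median of all these genes shifted to -0.21 in Ctrl and -0.23 in Y/T KO, and of the 21 genes 16 were lower and 1 higher in Ctrl and 16 lower and 2 higher in Y/T KO. *Sfrp2*, *Sfrp4*, and *Rspo1* passed in Ctrl and missed the threshold in Y/T KO on rescaled values, but with TPM as deposited they passed in Y/T KO as well (limma adjusted p = 0.0113, 0.0173, and 0.0307). *Wnt2b* passed in Y/T KO on rescaled values and, with TPM as deposited, in Ctrl too (limma adjusted p = 0.0439). The test of the difference between genotypes, given below as the interaction, passed for none of these 4 genes.

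Among the ligands, 5 of the 7 Wnt genes tested in both tissues were lower in Ctrl colon (*Wnt2*, *Wnt4*, *Wnt5a*, *Wnt5b*, and *Wnt9a*), and *Wnt2b* and *Wnt6* did not pass. With coverage, the mean read depth over the bases of a gene, in place of TPM, *Wnt5b* did not pass in either genotype. Its coverage was 0.0294 to 0.0299 times that implied by FPKM in all libraries. The 0.1 added before the logarithm was therefore large beside it and made its differences smaller. *Wnt2*, a ligand of mesenchymal cells that signals through beta-catenin, had TPM values of 1.82, 2.64, and 1.08 in Ctrl colon and 58.1, 63.7, and 60.1 in Ctrl bladder. That was a log2 difference of -4.79 (SE 0.30, limma adjusted p = 1.71e-07), or a colon level 0.0361 times that of bladder. *Wnt7b*, a ligand known from epithelia such as the urothelium, was listed at 0, 0, and 0.109 in Ctrl colon and stood, in TPM, at 13.8, 15.4, and 15.0 in Ctrl bladder.

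*Wnt9a* had TPM values of 1.49, 0.723, and 1.44 in Ctrl colon and 13.6, 18.1, and 12.1 in Ctrl bladder (log2 difference -3.27, SE 0.30, limma adjusted p = 4.38e-06). *Wnt11*, a ligand that acts without beta-catenin, stood, in TPM, at 0.657, 0.275, and 0.121 in Ctrl colon against 5.59, 4.21, and 3.75 in Ctrl bladder. *Wnt9a* did not overlap between the tissues, whereas *Wnt11* reached the filter through bladder only and is given by its values. *Wnt8b* ran the other way. It had values of 1.46, 2.04, and 1.26 TPM in the Ctrl colon and 0.947, 0.967, and 0.442 in the Y/T KO colon libraries, and it was listed at 0 in all 6 bladder libraries, so no ratio is given. *Wnt10a*, in contrast, was listed at 0 in all 6 colon libraries and stood between 0.409 and 0.818 TPM in bladder.

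The 19 Wnt genes summed to between 28 and 37.2 TPM in Ctrl colon and between 205 and 245 TPM in Ctrl bladder. The mix differed as well. *Wnt4*, a ligand of urogenital and muscle development, led in Ctrl colon with 7.50, 12.3, and 6.59 TPM, from 23.5% to 33.1% of all Wnt transcripts. In bladder, *Wnt2*, *Wnt5a*, and *Wnt4* together made up between 71.9% and 75.2% of Wnt transcripts in all 6 libraries. *Wnt5a*, the main ligand of Ror receptors, had TPM values of 64.3, 66.2, and 35.1 in Ctrl bladder and 56.1, 37.2, and 41.6 in Y/T KO bladder, the lowest value coming from Ctrl mouse 788.

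**Figure D2:**
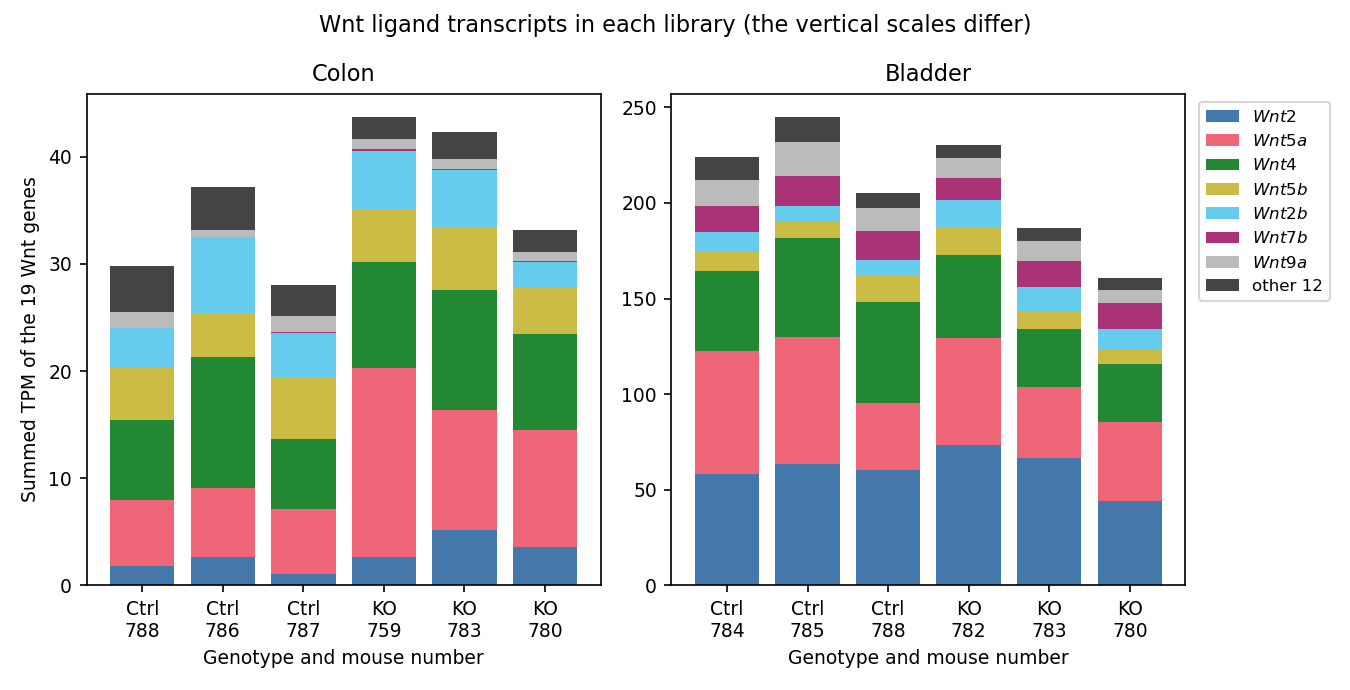
Summed TPM of the 19 Wnt genes (y axis) in each library of colon (left) and bladder (right), named by genotype and mouse, with 1 colour for each of the 7 genes of highest mean level and dark grey for the other 12. Vertical scales differ: colon bars end between 28 and 43.7 TPM and bladder bars between 161 and 245 TPM, and the *Wnt5a* share is larger in the Y/T KO than in the Ctrl colon libraries.

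Frizzled receptors, membrane-spanning proteins that bind Wnts, differed in both directions: of 6 genes tested in both tissues, 4 were lower in Ctrl colon (*Fzd1*, *Fzd2*, *Fzd4*, and *Fzd7*) and 2, *Fzd5* and *Fzd8*, were higher. *Fzd1* had the highest receptor level in bladder, at 62.1, 71.3, and 93.5 TPM in the Ctrl libraries and 79.2, 71.6, and 66.6 in the Y/T KO libraries. In Ctrl colon it stood, in TPM, at 23.6, 24.4, and 23.1, a level that did not differ from that of *Fzd5* beyond their spread. *Fzd5*, a receptor of the intestinal epithelium, had TPM values of 21.9, 25, and 22.7 in Ctrl colon and 7.73, 6.67, and 8.63 in Ctrl bladder. Its log2 difference was 1.85 (SE 0.18, limma adjusted p = 5.69e-06), with no overlap between the tissues. *Fzd8* was less firm: 5.09, 6.52, and 6.74 TPM in Ctrl colon overlapped with 4.30, 4.05, and 5.29 TPM in Ctrl bladder (log2 difference 0.67, SE 0.19, limma adjusted p = 0.0106), and with TPM as deposited its adjusted p was 0.109. *Fzd7*, a receptor of intestinal stem cells, ran from 7.95 to 15.5 TPM in colon and from 39.0 to 50.3 TPM in bladder.

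Among the antagonists, *Dkk3* had the highest mean level of all 41 genes in each of the 4 groups, although *Sfrp1* and *Sfrp2* were above it in the colon of Y/T KO mouse 780. It is the member of its family that is not known to block *Lrp5* and *Lrp6* as *Dkk1* does. *Dkk3* stood, in TPM, at 50.4, 48.6, and 47.4 in Ctrl colon and 113, 124, and 150 in Ctrl bladder. *Dkk2* had TPM values of 0.912, 1.38, and 0.945 in Ctrl colon and 35.5, 43.7, and 44.6 in Ctrl bladder (log2 difference -4.90, SE 0.20, limma adjusted p = 4.94e-09). Of all Dkk transcripts, *Dkk2* made up between 1.78% and 3.59% in colon and between 17.8% and 26.0% in bladder. *Dkk1*, the classical *Lrp5* and *Lrp6* inhibitor, was listed at 0 in 11 libraries and at 0.122 TPM in 1 Y/T KO bladder.

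*Sfrp1* and *Sfrp2* made up most Sfrp transcripts in every library. *Sfrp1* led in Ctrl colon with 29.0, 33.3, and 23.7 TPM, and *Sfrp2* led in Ctrl bladder with 67.4, 52.5, and 47.0 TPM. Of 4 Sfrp genes, 3 were lower in Ctrl colon than in Ctrl bladder and *Sfrp1* did not pass (log2 difference -0.24, SE 0.19, limma adjusted p = 0.329).

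The R-spondins split by tissue. *Rspo1* stood, in TPM, at 2.85, 4.38, and 4.42 in Ctrl colon and 14.5, 29.8, and 18.8 in Ctrl bladder (log2 difference -2.11, SE 0.55, limma adjusted p = 0.00757). *Rspo3*, the R-spondin of the colonic crypt base, led in colon with 5.57, 7.40, and 5.22 TPM in Ctrl against 6.43, 2.95, and 3.99 TPM in Ctrl bladder. The groups overlapped, with a log2 difference of 0.75 (SE 0.25, limma adjusted p = 0.0280). Without Ctrl bladder mouse 785 it was 0.49 with an adjusted p of 0.118, without Ctrl bladder mouse 788 the adjusted p was 0.0812, without Ctrl colon mouse 786 it was 0.0824, and with TPM as deposited it was 0.135. In Y/T KO the same contrast was 1.27 (SE 0.25, limma adjusted p = 0.00132), without overlap. Within the family, *Rspo3* supplied between 53.2% and 89.0% of transcripts in colon and between 8.98% and 46.4% in bladder.

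**Figure D3:**
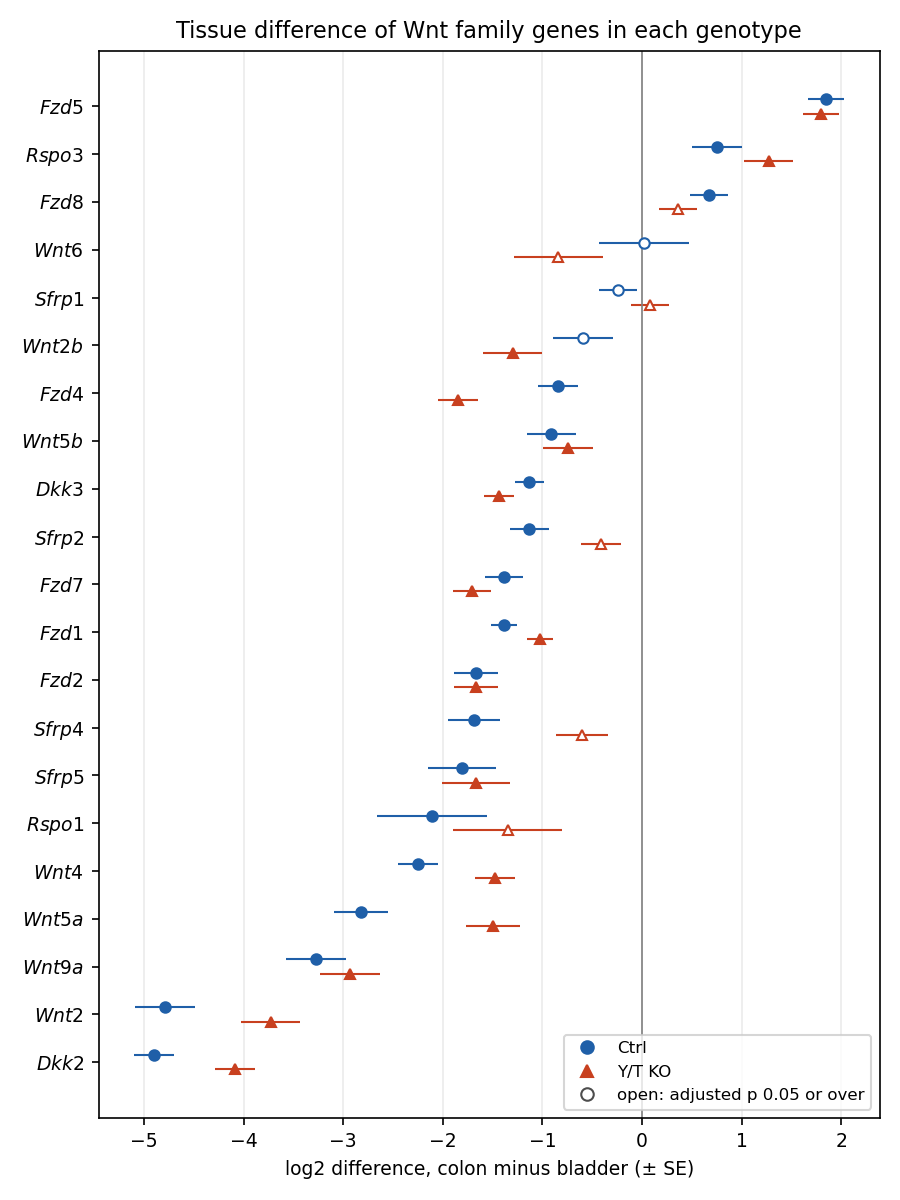
Log2 difference, colon minus bladder (x axis, with SE bars), of the 21 genes tested in both tissues (y axis, ordered by the Ctrl value) in Ctrl (circles) and Y/T KO (triangles), filled where the limma adjusted p was under 0.05. Most points lie left of 0, from -4.90 for *Dkk2* to 1.85 for *Fzd5* in Ctrl.

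Genotype was compared within each tissue. In colon, 0 of 22 tested genes passed a limma adjusted p under 0.05, against 0.137% of all 17500 genes tested, and 9 had an unadjusted p under 0.05, against 9.73% of all genes. Of these 9, 7 had higher values in Y/T KO (*Rspo3*, *Wnt5a*, *Sfrp4*, *Wnt2*, *Sfrp2*, *Fzd1*, and *Sfrp1*) and 2 had lower values (*Fzd2* and *Wnt8b*), against 5.14% and 4.59% of all genes. On TPM as deposited, the scale on which overlap is read throughout, genotype groups did not overlap for 9 genes, against 15.8% of all genes. They were separate with an unadjusted p under 0.05 for 6 genes with higher and 2 with lower values in Y/T KO, against 4.30% and 4.03% of all genes. On the rescaled values the groups of *Sfrp1* and *Dkk2* were separate as well, both higher in Y/T KO. Of the 22 genes, 12 had a log2 difference, Y/T KO minus Ctrl, below 0, against 49.1% of all genes, among them 4 of 8 Wnt ligands, and the median was -0.05 against 0.01 over all genes. A difference that missed the threshold was not shown to be absent. For a single gene, 3 libraries per genotype leave 0.10 as the smallest two-sided p of an exact permutation test.

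*Rspo3* had the lowest p by TPM. It had TPM values of 5.57, 7.40, and 5.22 in Ctrl colon and 11.4, 11.1, and 13.7 in Y/T KO colon. The log2 difference was 1.03 (SE 0.19), a 2.04-fold higher fitted level in Y/T KO, with a limma adjusted p of 0.143. With coverage it was 0.95 (SE 0.20, limma adjusted p = 0.244), and *Wnt5a* had the lowest p on that measure. The gene (ENSMUSG00000019880) lies on the minus strand at chr10:29452416-29535867 of GRCm38.

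*Wnt5a* stood, in TPM, at 6.16, 6.41, and 6.01 in Ctrl colon and 17.6, 11.2, and 10.9 in Y/T KO colon. The Ctrl libraries were close together and every Y/T KO library was above them (log2 difference 1.08, SE 0.22, limma adjusted p = 0.220, and 1.00, SE 0.17, limma adjusted p = 0.142 by coverage). The gene (ENSMUSG00000021994) lies on the plus strand at chr14:28504750-28527448. As a share of all Wnt transcripts, *Wnt5a* made up between 17.3% and 21.4% in Ctrl colon and between 26.5% and 40.2% in Y/T KO colon. *Wnt2*, at the level of few TPM in colon, had TPM values of 1.82, 2.64, and 1.08 in Ctrl and 2.65, 5.15, and 3.57 in Y/T KO. The highest Ctrl value, 2.64, all but met the lowest Y/T KO value, 2.65 (log2 difference 1.07, SE 0.36, limma adjusted p = 0.447).

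For the Sfrp genes, the spread between Y/T KO mice was wider than between Ctrl mice. *Sfrp4* stood, in TPM, at 6.40, 6.69, and 6.42 in Ctrl colon and 9.29, 17.2, and 11.9 in Y/T KO colon (log2 difference 0.95, SE 0.24, limma adjusted p = 0.326). *Sfrp2* had TPM values of 21.3, 20.1, and 21.5 in Ctrl and 24.2, 30.7, and 42.4 in Y/T KO (log2 difference 0.63, SE 0.22, limma adjusted p = 0.464), and 0.40 without Y/T KO mouse 780. *Sfrp1* stood, in TPM, at 29.0, 33.3, and 23.7 in Ctrl and 30.2, 40.4, and 57.5 in Y/T KO, which overlap (log2 difference 0.57, SE 0.24, limma adjusted p = 0.508), and 0.32 without the same mouse. Mouse 759 had the lowest value of the Y/T KO colons for all 3 genes, and the highest for *Wnt5a*.

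Among the receptors, *Fzd1* had TPM values of 23.6, 24.4, and 23.1 in Ctrl colon and 28.7, 28.6, and 31.2 in Y/T KO colon (log2 difference 0.35, SE 0.14, limma adjusted p = 0.488). *Fzd2* was the receptor with lower values, at 7.82, 6.56, and 6.84 TPM in the Ctrl libraries and 4.34, 4.70, and 3.56 in the Y/T KO libraries (log2 difference -0.71, SE 0.21, limma adjusted p = 0.403). *Fzd2* (ENSMUSG00000050288) lies on the plus strand at chr11:102604396-102608058. *Wnt8b*, with values given above, had a log2 difference of -0.94 (SE 0.37, limma adjusted p = 0.492) and no overlap. It was -0.62 without Y/T KO mouse 780 and -0.52 with 1 TPM added before the logarithm. *Wnt6* did not overlap either, at 0.893 to 1.22 TPM in Ctrl and 0.328 to 0.735 TPM in Y/T KO, and had an unadjusted p of 0.0504. It reached 0.5 TPM in colon in all Ctrl and in 1 of the Y/T KO libraries. The smooth muscle marker sum was lower in Y/T KO colon, as given above, and its part in these differences was not tested.

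The other leading genes had overlapping genotype groups in colon. *Wnt4* stood, in TPM, at 7.50, 12.3, and 6.59 in Ctrl and 9.91, 11.2, and 9.03 in Y/T KO. *Dkk3* had TPM values of 46.9, 48.7, and 37.2 in Y/T KO, *Fzd5* of 25.4, 22.9, and 17.4, and *Dkk2* of 1.66, 1.82, and 1.32, each with a log2 difference between -0.11 and 0.57 from the Ctrl values above. *Rspo1* scattered most, at 6.25, 1.37, and 5.32 TPM in Y/T KO (log2 difference -0.05, SE 0.55). By family, the sums of the 4 Sfrp genes did not overlap, at 53.1 to 61.4 TPM in Ctrl and 64.8 to 113 TPM in Y/T KO, and neither did those of the 4 Rspo genes, at 8.42 to 12 TPM and 12.5 to 19.1 TPM. These 2 sums contain the *Sfrp1*, *Sfrp2*, *Sfrp4*, and *Rspo3* values given above, so they add no separate evidence. No share over all genes is available for sums. Sums of the Wnt, Fzd, and Dkk genes overlapped.

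**Figure D4:**
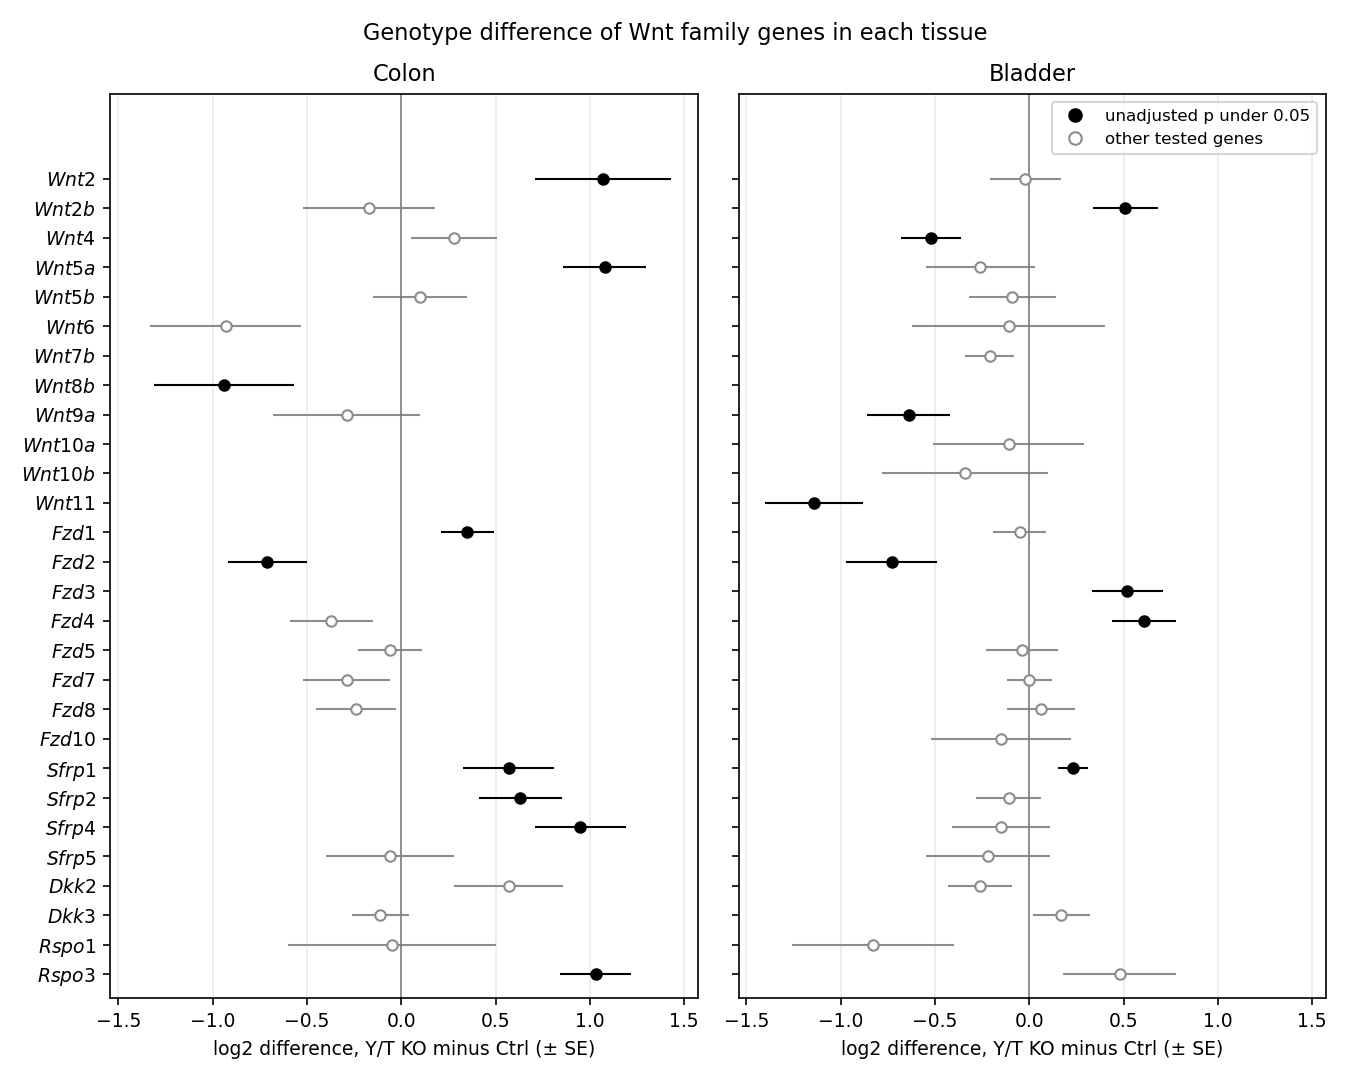
Log2 difference, Y/T KO minus Ctrl (x axis, with SE bars), of each tested gene (y axis) in colon (left) and bladder (right), filled where the unadjusted p was under 0.05. Filled points number 9 in colon, 7 of them right of 0, and 8 in bladder, 4 on each side, and no gene passed an adjusted p under 0.05 in either tissue.

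In bladder, 0 of 27 tested genes passed a limma adjusted p under 0.05, against 0.302% of all 18237 genes tested. An unadjusted p under 0.05 was found for 8 genes, against 14.8% of all genes. Of these, 4 had lower values in Y/T KO (*Wnt11*, *Wnt4*, *Wnt9a*, and *Fzd2*) and 4 had higher values (*Fzd4*, *Wnt2b*, *Sfrp1*, and *Fzd3*), against 8.20% and 6.64% of all genes. Groups did not overlap for 7 genes, against 20.4% of all genes. They were separate with an unadjusted p under 0.05 for 2 genes with lower and 4 with higher values, against 6.95% and 5.87% of all genes. On the rescaled values the groups of *Wnt4* and *Fzd2* were separate as well, both lower in Y/T KO. Of the 27 genes, 19 had a log2 difference below 0, against 49.8% of all genes, and the median was -0.11 against 0.00 over all genes. The 19 included 10 of 11 Wnt ligands, *Wnt2b* being the exception, and 4 of 8 Frizzleds. Over the 11 Wnt ligands the median was -0.21. The differences of *Wnt2*, *Wnt5a*, *Wnt5b*, *Wnt6*, *Wnt10a*, and *Wnt10b* were smaller than their SE. The smooth muscle marker sum was lower in Y/T KO bladder too, and its part in these differences was not tested.

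*Wnt11* had the lowest p of the bladder genes by TPM. It stood, in TPM, at 5.59, 4.21, and 3.75 in Ctrl bladder and 2.38, 1.54, and 2.08 in Y/T KO bladder, a fitted level 0.454 times that of Ctrl. The log2 difference was -1.14 (SE 0.26, limma adjusted p = 0.152), and the gene (ENSMUSG00000015957) lies on the plus strand at chr7:98835112-98855195. The size depended on the measure: with coverage in place of TPM, the difference was -0.66 (SE 0.23, limma adjusted p = 0.261). On that measure *Fzd4* had the lowest p.

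*Wnt9a* had TPM values of 13.6, 18.1, and 12.1 in Ctrl bladder and 10.2, 10.4, and 7.28 in Y/T KO bladder (log2 difference -0.64, SE 0.22, limma adjusted p = 0.263). *Wnt4* overlapped, at 42.1, 51.7, and 52.9 TPM in the Ctrl libraries and 43.6, 30.2, and 29.9 in the Y/T KO libraries (log2 difference -0.52, SE 0.16, limma adjusted p = 0.224). *Wnt2b*, a mesenchymal ligand close in sequence to *Wnt2*, stood, in TPM, at 9.77, 7.82, and 8.62 in Ctrl and 14.5, 12.6, and 10.6 in Y/T KO (log2 difference 0.51, SE 0.17, limma adjusted p = 0.246).

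*Fzd4*, a receptor with a known role in retinal vessels, had TPM values of 27.8, 20.8, and 21.5 in Ctrl bladder and 31.5, 38.5, and 36.8 in Y/T KO bladder. The log2 difference was 0.61 (SE 0.17, limma adjusted p = 0.199), and the gene (ENSMUSG00000049791) lies on the plus strand at chr7:89404355-89413134. The 6 endothelial markers summed to between 210 and 274 TPM in Ctrl and between 257 and 273 TPM in Y/T KO, and the 5 adipocyte markers to between 1512 and 2415 TPM and between 2186 and 3077 TPM, both overlapping. The part of these cells in the *Fzd4* difference was not tested. *Fzd3*, a receptor of planar polarity and axon guidance, stood, in TPM, at 4.09, 3.10, and 4.59 in Ctrl and 5.58, 5.40, and 5.90 in Y/T KO (log2 difference 0.52, SE 0.19, limma adjusted p = 0.293). *Sfrp1* differed little but had a tight spread, at 38.6, 39.5, and 42.5 TPM in the Ctrl libraries and 46.5, 47.2, and 47.4 in the Y/T KO libraries (log2 difference 0.23, SE 0.08, limma adjusted p = 0.285).

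*Fzd2* had nearly the same difference as in colon. It had TPM values of 21.1, 36.1, and 26.0 in Ctrl bladder and 21.7, 14.1, and 14.2 in Y/T KO bladder, a log2 difference of -0.73 (SE 0.24, limma adjusted p = 0.248). On the deposited scale the groups overlapped, since Y/T KO mouse 782, at 21.7 TPM, was above Ctrl mouse 784, at 21.1 TPM. The colon and bladder values come from different libraries, of which 2 Y/T KO and 1 Ctrl in each tissue are from the same mice.

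Genes that led their families in bladder overlapped between genotypes. *Wnt2* stood, in TPM, at 73.3, 66.7, and 44.0 in Y/T KO bladder (log2 difference -0.02, SE 0.19), *Sfrp2* at 49.7, 46.7, and 57.1 (log2 difference -0.11, SE 0.17), and *Dkk3* at 180, 133, and 125 (log2 difference 0.17, SE 0.15). *Dkk2* had TPM values of 39.2, 38.2, and 27.1 there (log2 difference -0.26, SE 0.17). *Rspo1* stood, in TPM, at 20.7, 6.6, and 10.3 against 14.5, 29.8, and 18.8 in Ctrl (log2 difference -0.83, SE 0.43, limma adjusted p = 0.421), and *Rspo3* at 5.78, 5.84, and 6.28 against 6.43, 2.95, and 3.99 (log2 difference 0.48, SE 0.30, limma adjusted p = 0.498). *Wnt7b* did not overlap, at 11.7, 13.3, and 13.3 TPM in Y/T KO against 13.8, 15.4, and 15.0 TPM in Ctrl, and its unadjusted limma p was 0.143. No family sum was separate between genotypes in bladder.

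**Figure D5:**
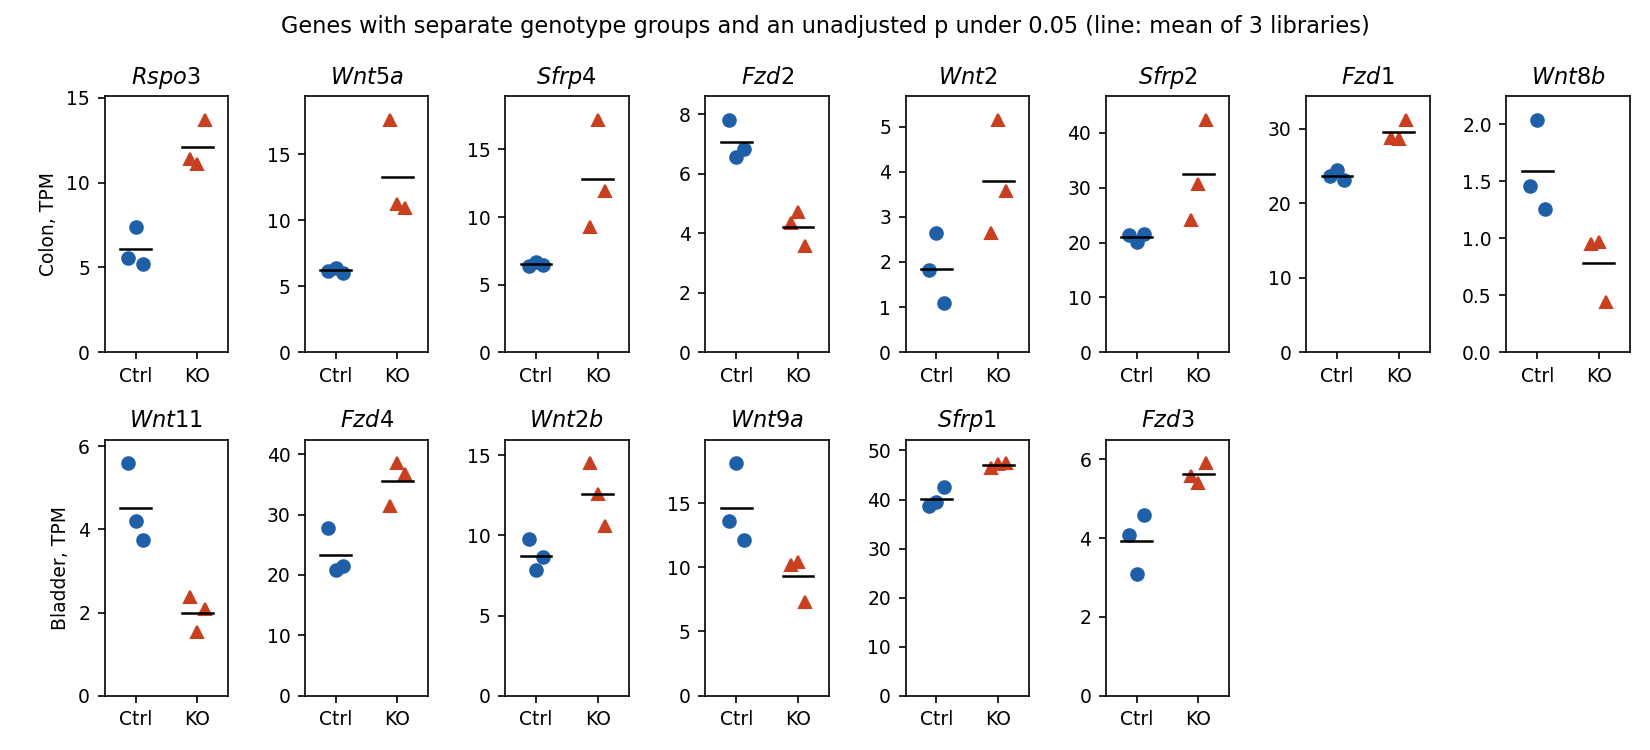
TPM (y axes, from 0) of the 8 colon genes (top) and 6 bladder genes (bottom) whose genotype groups did not overlap and whose unadjusted p was under 0.05, with 1 circle per Ctrl and 1 triangle per Y/T KO library and a line at the mean of 3. *Rspo3* lies between 5.22 and 7.40 TPM in Ctrl and between 11.1 and 13.7 TPM in Y/T KO colon, whereas the *Wnt2* groups come as close as 2.64 and 2.65 TPM in colon.

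Whether the genotype difference itself differed between tissues was tested as the interaction of genotype and tissue over 12 libraries. Of 21 genes tested in both tissues, 0 passed a limma adjusted p under 0.05, against 0.0552% of 16298 genes, and 7 had an unadjusted p under 0.05, against 12.6% of all genes. For 6 of these (*Wnt5a*, *Sfrp4*, *Dkk2*, *Wnt4*, *Wnt2*, and *Sfrp2*) the difference, Y/T KO minus Ctrl, was higher in colon than in bladder, and for *Fzd4* it was lower, against 7.03% and 5.61% of all genes. The interaction of *Wnt5a* was 1.32 (SE 0.37, limma adjusted p = 0.235), from a log2 difference of 1.08 in colon and -0.26 (SE 0.29) in bladder. For *Fzd4* it was -1.01 (SE 0.28, limma adjusted p = 0.232), from -0.37 (SE 0.22) in colon and 0.61 in bladder. For *Sfrp4* it was 1.08 (SE 0.37, limma adjusted p = 0.283), from 0.95 in colon and -0.15 (SE 0.26) in bladder. The *Fzd2* fold in colon was 0.997 times that in bladder (SE 0.31 on the log2 scale, limma adjusted p = 0.995). Over the 21 genes the median interaction was 0.32, against -0.02 over all genes tested.

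Several members neighbour each other. *Wnt6* and *Wnt10a* lie 6.2 kb apart on chromosome 1 of GRCm38 (chr1:74771892-74804179, from the start of the first to the end of the second), *Wnt10b* and *Wnt1* 11.7 kb apart on chromosome 15, *Wnt3a* and *Wnt9a* 16.2 kb apart on chromosome 11, and *Wnt9b* and *Wnt3* 24.3 kb apart on the same chromosome. *Wnt9b* and *Wnt3* both stayed at or below 0.101 TPM, and in the other pairs the levels differed. *Wnt9a* reached 18.1 TPM in bladder beside at most 0.1 TPM for *Wnt3a*, and *Wnt6* was measured in every colon library while *Wnt10a* was listed at 0 in all of them. *Wnt10b* reached 5.52 TPM in bladder, and *Wnt1* was listed at 0 throughout.

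*Wnt5b* overlaps *Fbxl14* on the opposite strand, which stood between 15.0 and 25.2 TPM. Kits were stranded, but the strand setting used for quantification is not given in the sources used here, so reads of the pair cannot be told apart with certainty. *Wnt5b* stood between 3.96 and 5.94 TPM in colon and between 7.99 and 13.9 TPM in bladder. *Wnt7b* overlaps AU022754, which reached 4.89 TPM, and *Sfrp2* overlaps Gm26771, which reached 1.73 TPM, both on the opposite strand. Of the Fzd genes, *Fzd1*, *Fzd2*, *Fzd7*, *Fzd8*, *Fzd9*, and *Fzd10* have a single exon in GENCODE M21, and all tested Wnt genes have more.

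Promoters were examined in RefSeq models of GRCm38.p6, where 27 of the 41 genes had an entry, 30 entries in all, each from 250 bases before to 50 bases after a transcript start. Their median GC content was 69.8%, against 52.7% over all 32851 entries. GGAATG, the core motif bound by the TEAD partners of YAP and TAZ, was searched on both strands and was found in 1 of the 30 entries, that of 1 of the 3 starts of *Wnt5b*, against 14.7% of all entries. *Rspo3*, *Wnt5a*, *Sfrp4*, and *Fzd2*, which had the lowest genotype p in colon, had no entry and were not searched. ATCAAAG, the TCF/LEF motif through which beta-catenin acts, was found in 2 entries, of *Wnt11* and *Wnt5b*, against 3.73% of all entries. Below are the 250 bases before the start for the 2 genes with an entry that had the lowest genotype p by TPM in bladder (*Wnt11* and *Fzd4*) and in colon (*Sfrp2* and *Wnt2*). For *Wnt11* the first of its 2 entries is given. The sequences read 5′ to 3′ on the gene's strand, with the TCF/LEF motif in capitals. They run over chr7:98834862-98835111 (plus strand) for *Wnt11*, chr7:89404116-89404365 (plus strand) for *Fzd4*, chr6:18030446-18030695 (minus strand) for *Wnt2*, and chr3:83766071-83766320 (plus strand) for *Sfrp2*.
Wnt11: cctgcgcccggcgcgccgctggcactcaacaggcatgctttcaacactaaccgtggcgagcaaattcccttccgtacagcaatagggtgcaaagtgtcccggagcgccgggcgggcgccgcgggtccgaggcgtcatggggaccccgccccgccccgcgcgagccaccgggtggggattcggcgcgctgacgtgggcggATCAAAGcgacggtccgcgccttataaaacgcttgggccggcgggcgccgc
Fzd4: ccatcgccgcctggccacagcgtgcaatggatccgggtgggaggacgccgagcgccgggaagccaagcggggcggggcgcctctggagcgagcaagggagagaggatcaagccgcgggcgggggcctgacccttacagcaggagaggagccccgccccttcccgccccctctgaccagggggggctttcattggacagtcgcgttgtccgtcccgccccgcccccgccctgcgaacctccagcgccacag
Wnt2: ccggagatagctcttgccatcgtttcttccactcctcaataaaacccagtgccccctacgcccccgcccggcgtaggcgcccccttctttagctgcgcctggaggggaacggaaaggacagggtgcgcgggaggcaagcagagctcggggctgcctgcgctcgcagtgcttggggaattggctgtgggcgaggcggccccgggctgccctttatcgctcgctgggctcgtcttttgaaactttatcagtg
Sfrp2: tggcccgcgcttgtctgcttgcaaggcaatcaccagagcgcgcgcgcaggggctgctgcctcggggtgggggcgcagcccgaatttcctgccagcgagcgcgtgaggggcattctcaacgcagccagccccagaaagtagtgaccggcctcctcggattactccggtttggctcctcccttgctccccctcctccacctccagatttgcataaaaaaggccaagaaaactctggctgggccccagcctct

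In *Wnt11* the motif began 51 bases before the start. The second *Wnt11* entry held neither motif, and the other 3 windows held neither set of letters. A match describes the letters only, and no binding was measured.

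Genes that act beside the members were taken from lists of co-receptors, other secreted modulators, intracellular components, transcriptional targets, and planar polarity genes. Of 76 such genes, 67 were tested in colon and 70 in bladder, and 0 passed a limma adjusted p under 0.05 in either tissue. With coverage in place of TPM, *Tcf7l1* passed in bladder. An unadjusted p under 0.05 was found in colon for 6 genes with lower and 1 with higher values, 10.4% of those tested against 9.73% of all genes, and in bladder for 9 and 2, 15.7% against 14.8%. Taken over both directions, the shares are thus close to the background. By direction, the background was 4.59% lower and 5.14% higher in colon, and 8.20% lower and 6.64% higher in bladder. Of the listed genes with an unadjusted p under 0.05, more had lower than higher values in both tissues.

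*Nkd1* and *Nkd2*, Dishevelled-binding inhibitors that beta-catenin signalling itself turns on, had lower values in Y/T KO in both tissues without overlap. *Nkd1* had TPM values of 9.69, 11.9, and 9.80 in Ctrl colon and 3.55, 7.09, and 5.44 in Y/T KO colon (log2 difference -0.96, SE 0.26, limma adjusted p = 0.365). In bladder it stood, in TPM, at 62.9, 73.4, and 65.6 in Ctrl and 54.1, 44.1, and 44.1 in Y/T KO (log2 difference -0.51, SE 0.11, limma adjusted p = 0.141). *Nkd2* had log2 differences of -0.76 (SE 0.24, limma adjusted p = 0.435) in colon and -0.61 (SE 0.18, limma adjusted p = 0.226) in bladder. *Rnf43* and *Znrf3*, which are on this list of targets too, are given below. Of the list of 16 target genes, 14 were tested in colon with a median difference of 0.20 and 15 in bladder with a median of -0.29.

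Of the receptors beside the Frizzleds, *Ror2*, the receptor of *Wnt5a*, had TPM values of 5.97, 8.67, and 5.35 in Ctrl bladder and 3.65, 2.55, and 3.57 in Y/T KO bladder (log2 difference -1.0, SE 0.25, limma adjusted p = 0.174). *Ror1* and the glypican *Gpc4* also had lower values in bladder without overlap, with log2 differences of -0.38 (SE 0.15) and -0.44 (SE 0.13). *Lrp6* stood, in TPM, at 58.0, 72.4, and 54.0 in Ctrl colon and 50.3, 43.8, and 35.9 in Y/T KO colon (log2 difference -0.47, SE 0.16, limma adjusted p = 0.447). The ligase *Rnf43* had TPM values of 14.2, 11.5, and 13.0 in Ctrl colon and 17.3, 16.8, and 17.1 in Y/T KO colon (log2 difference 0.45, SE 0.17, limma adjusted p = 0.492, and 0.29 with coverage). Its relative *Znrf3* had a log2 difference of -0.66 (SE 0.20, limma adjusted p = 0.219) in bladder, and *Lgr6*, a receptor of R-spondins, had 0.85 (SE 0.28, limma adjusted p = 0.248) there.

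Inside the cell, *Bcl9l*, a co-activator of beta-catenin, had log2 differences of -0.84 (SE 0.31) in colon, or -0.49 without Y/T KO mouse 759, and -0.75 (SE 0.22) in bladder, and *Gsk3b*, a kinase of the complex that degrades beta-catenin, had -0.78 (SE 0.29) in colon, or -0.51 without Y/T KO mouse 780 and -1.51 with coverage. *Tcf7l1*, a repressing TCF factor, had -0.33 (SE 0.12) in bladder, and -0.62 with coverage, where its limma adjusted p was 0.0476. Of the remaining genes without overlap and with an unadjusted p under 0.05, *Sostdc1*, a secreted antagonist, had -0.67 (SE 0.17) and *Dkkl1* had 0.90 (SE 0.28) in bladder, and the small GTPase *Rhov* had -1.20 (SE 0.35) in colon. None of these passed an adjusted p under 0.05 on TPM, and the smooth muscle marker sum differed between genotypes in both tissues beside all of them.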

How the data were processed

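Total RNA of whole colon and bladder was sequenced after a stranded mRNA preparation. The authors aligned reads to GRCm38 with HISAT2 and deposited StringTie gene abundances per library as TPM, FPKM, and coverage, the last a signal averaged over the bases of a gene. The versions are not given in the sources used here. No counts were used, so precision was read from the spread between 3 mice per group.

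TPM was summed by gene identifier, rescaled by median-of-ratios size factors, and tested as log2(TPM + 0.1) with limma 3.58.1 in R 4.3.3 (eBayes with trend and robust options, two-sided, Benjamini-Hochberg over all genes tested). Genotype differences were fitted over the 6 libraries of a tissue, and a gene was tested where at least 3 of them reached 0.5 TPM. Tissue differences and the interaction were fitted over all 12 libraries, with a spread shared by the 4 groups. Tissue differences were adjusted over the 19773 genes that reached 0.5 TPM in at least 3 of the 12 libraries. The interaction was tested for genes tested in both tissues. All folds come from log2(TPM + 0.1), which makes those of low genes too small. Fits were tested on simulated data. Members and lists were chosen with earlier results of these data known. Values per library are given for members with separate genotype groups and an unadjusted p under 0.05, for the highest member of each family in a tissue, and for the 5 largest tissue differences in each direction. Genes of the other pathway lists are named where their genotype groups were separate at an unadjusted p under 0.05.

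Mice 788, 783, and 780 gave both tissues, which pairs those libraries. Deviations from the group means correlated at -0.0161, 0.0889, and 0.0593 in these mice. Between colon and bladder of different mice of the same genotype, they correlated at -0.0991 to 0.057. Mouse as a block was an alternative, with a fitted correlation within mouse of 0.0514 to 0.0566. The others were other pseudocounts, filters, and scalings, FPKM, all 12 libraries in 1 fit, limma without trend and robust options, leaving out each library, and coverage in place of TPM, which was chosen after seeing the data.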

Additional observations from a re-analysis of the deposited data

How the results depend on the processing

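In colon, in bladder, and for the interaction, 0 members passed an adjusted p under 0.05 whichever alternative was used and whichever library was omitted. With TPM as deposited, 1 of the 21 members tested in both tissues, in place of 3, was higher in Ctrl colon than in Ctrl bladder, since *Fzd8* (0.42, adjusted p = 0.109) and *Rspo3* (0.49, adjusted p = 0.135) no longer passed, and that scaling moved the median of all genes from 0.05 to -0.21. With FPKM, *Rspo3* was at 0.61 (adjusted p = 0.0623). *Rspo3* also did not pass without the bladder of Ctrl mouse 785 (0.49), without that of Ctrl mouse 788 (0.68), or without the colon of Ctrl mouse 786 (0.65). With mouse as a replicate block, the interaction had 0 members called, and the tissue differences had 15 lower and 3 higher in Ctrl and 13 lower and 2 higher in Y/T KO, so the pairing changed no count of calls. With coverage, chosen after seeing the data, 14 were lower and 3 higher in Ctrl and 12 and 2 in Y/T KO. The gene that no longer passed was *Wnt5b*, whose low coverage is given above. Differences near 0 changed sign: between genotypes in colon, that of *Rspo1* was 0.01 with 1 TPM added and between -0.43 and 0.63 over libraries left out, and that of *Fzd5* between -0.17 and 0.09. In bladder, that of *Wnt2* was 0.00 with FPKM and between -0.13 and 0.21 over libraries left out, that of *Sfrp2* between -0.25 and 0.06, and that of *Sfrp4* between -0.42 and 0.11. The *Fzd2* interaction was 0.04 with FPKM, 0.03 with 0.5 TPM added, 0.06 with 1 TPM added, and between -0.21 and 0.18 over libraries left out. These were 2 of 23 genes recomputed in colon, 3 of 28 in bladder, and 1 of 8 for the interaction. Of the 14 genes recomputed for the tissue difference in Ctrl and the 13 in Y/T KO, 0 changed sign. Leaving out libraries moved the *Rspo3* difference between genotypes in colon between 0.93 and 1.12, that of *Wnt5a* between 0.87 and 1.19, and that of *Wnt11* in bladder between -1.28 and -0.96. The deposited values give no counts per gene, so low members such as *Wnt8b* and *Wnt6* carry no counting interval.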

Other observations

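Coverage and FPKM of a gene should keep a fixed ratio within a library if they describe the same bases. For most genes with a single transcript the coverage was between 0.999 and 1 times that implied by FPKM and the library's aligned bases. The aligned bases were read from the commonest such ratio of a library, so this value was set by the method. Among genes with 1 coding transcript, *Sfrp2*, at 0.626 to 0.642 times, and *Wnt2b*, at 0.785 to 0.79 times, departed from it. *Wnt6* and *Rspo1*, with values given below, also have 1 coding transcript and departed too. *Wnt5b* was at 0.0294 to 0.0299 times, *Sfrp4* at 0.419 to 0.475 times, *Wnt5a* at 0.480 to 0.732 times, and *Wnt11* at 0.280 to 0.570 times. For *Wnt5b* and *Sfrp4* the ratio was nearly the same in all libraries, whereas for *Wnt5a* and *Wnt11* it varied between libraries. It also varied for *Wnt16*, at 0.155 to 0.435 times, *Wnt10b*, at 0.639 to 0.797 times, *Wnt6*, at 0.714 to 0.946 times, *Rspo1*, at 0.71 to 0.925 times, and *Rspo3*, at 0.804 to 0.999 times. The differences of such genes depend on which of the deposited measures is read.

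Per gigabase of aligned sequence, *Wnt5a* coverage was 1.88, 1.88, and 1.95 in Ctrl colon and 4.33, 3.34, and 4.23 in Y/T KO colon. The genotype groups did not overlap there, as with TPM, and the log2 difference was 1.00 (SE 0.17, limma adjusted p = 0.142). The interaction of genotype and tissue was 1.27 (SE 0.24, limma adjusted p = 0.144) by coverage. *Wnt11* coverage in bladder was 0.714, 0.928, and 0.775 in Ctrl and 0.603, 0.377, and 0.543 in Y/T KO, again without overlap.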
